A study of Mus musculus with 14 samples.

Results

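ATF4 and 8 further genes of the integrated stress response were followed in mouse liver after 3 weeks of furan. The genes were Atf4, Atf5, Ddit3, Trib3, Asns, Chac1, Sesn2, Psat1 and Ppp1r15a. They were found on the arrays by the RefSeq accession that the scanner files give for each probe, which matched 11 probes, 2 each for Atf4 and Psat1 and 1 for each other gene. All 9 genes, and all 11 probes, passed the filter on dim probes, among 21975 genes tested in all, of which 13772 had a symbol. The others were known by their accession in the scanner files alone, and are counted as genes below.

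The integrated stress response begins when one of 4 kinases phosphorylates the translation initiation factor eIF2α, which slows protein synthesis in general while Atf4 mRNA is translated more. The ATF4 protein is a bZIP transcription factor that pairs with C/EBP family proteins and binds composite C/EBP-ATF sites in genes for amino acid supply, redox balance, growth control and cell death. In liver the response is known for its part in amino acid shortage, endoplasmic reticulum stress and mitochondrial stress. Arrays measure transcripts, so neither phosphorylated eIF2α nor ATF4 protein was measured here.

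The study used female B6C3F1 mice, a hybrid laboratory strain, labelled as 5 to 6 weeks old, the age at which they were bought. Controls were 4 mice gavaged with corn oil alone, and furan, a small heterocyclic compound that the liver oxidises to a reactive dialdehyde, was gavaged at 1 mg/kg body weight to 5 mice and at 8 mg/kg to 5 mice. All 14 mice, controls included, drank bromodeoxyuridine (BrdU, a thymidine analogue) for the last 5 days, so no group was free of BrdU, and livers were taken 4 h after the final gavage. Each array compared the liver RNA of 1 mouse, in Cy5, with a universal mouse reference RNA, in Cy3, and every value below is a log2 ratio of liver over reference or a difference between such ratios. A ratio below 0 therefore says that the probe was brighter with reference RNA, and ratios of different genes are not levels that can be ranked against each other.

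On each array, 41.4% to 53.6% of the 55681 probes gave liver-channel signal well above background, and no spot was saturated. The 14 arrays lay on 5 slides, 4 of which held all 3 groups, and the slide was a block in every test. The 3 arrays of slide 3, 1 from each group, stood apart on the first principal component, which held 30.7% of the variance. All 13 hepatocyte markers measured were above background on every array, and their summed liver-channel signal spanned 2017273 to 2060730 units in controls and 1956471 to 2023080 at 8 mg/kg.

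The RefSeq promoter table (GRCm38.p6, from 250 bases before the start site to 50 after it) held a promoter for all 9 genes, and was searched for TGATGNAA, a core of the C/EBP-ATF composite site, on both strands. The motif was found in 3 of the 9 genes, Asns, Chac1 and Trib3, and in 4.51% of all 27025 genes in the table. The palindromic cAMP response element TGACGTCA was found in 1 of the 9, Ppp1r15a, and in 2.03% of all genes, and neither search was run outside these windows. In Trib3 the motif lay after the start site, with its first base at position 14, and windows are given only for motifs before that site. The windows below, written 5′ to 3′ on the strand of the gene with the motif in capitals, are therefore those of Asns and Chac1. Their liver transcripts differed from control in opposite directions in sign at 8 mg/kg, though the difference of Chac1 did not pass.
Asns, chr6:7693210-7693258, minus strand: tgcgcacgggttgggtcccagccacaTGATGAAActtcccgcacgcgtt
Chac1, chr2:119351023-119351082, plus strand: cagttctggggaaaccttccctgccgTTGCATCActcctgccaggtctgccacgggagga
In Asns the motif lay on the gene's own strand with its first base at position -23 from the start site. In Chac1 it lay on the opposite strand, so it reads as its reverse complement in the line above, with its first base there at position -193. A match of letters is a description of the window and not a measured binding site.

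The first comparison asked what 8 mg/kg furan did to these genes. Of the 9, 3 rose at 8 mg/kg against control (Sesn2, Atf4 and Asns), none fell, and 6 did not pass, in a comparison in which 4.09% of all genes passed in either direction, 2.73% as higher and 1.36% as lower. The rises were 1.69-fold for Sesn2, 1.56-fold for Atf4 and 1.35-fold for Asns. The 9 genes did not move in one direction: Chac1 was lower in sign on all 4 slides that held both groups and just missed the threshold, while Ddit3, Trib3 and Ppp1r15a had intervals on both sides of 0. Without the 3 arrays of slide 3, Sesn2 (0.66 ± 0.13, limma adjusted p = 0.025) and Atf4 (0.78 ± 0.15, adjusted p = 0.025) passed and Asns did not (0.42 ± 0.12, adjusted p = 0.099). The median difference of the 9 was 0.24 on the log2 scale (range -0.62 to 0.76) beside 0.00 over all genes. In whole liver, a transcript that is lower because of fewer cells of a type cannot be told apart from one with less RNA per cell.

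**Figure D1:**
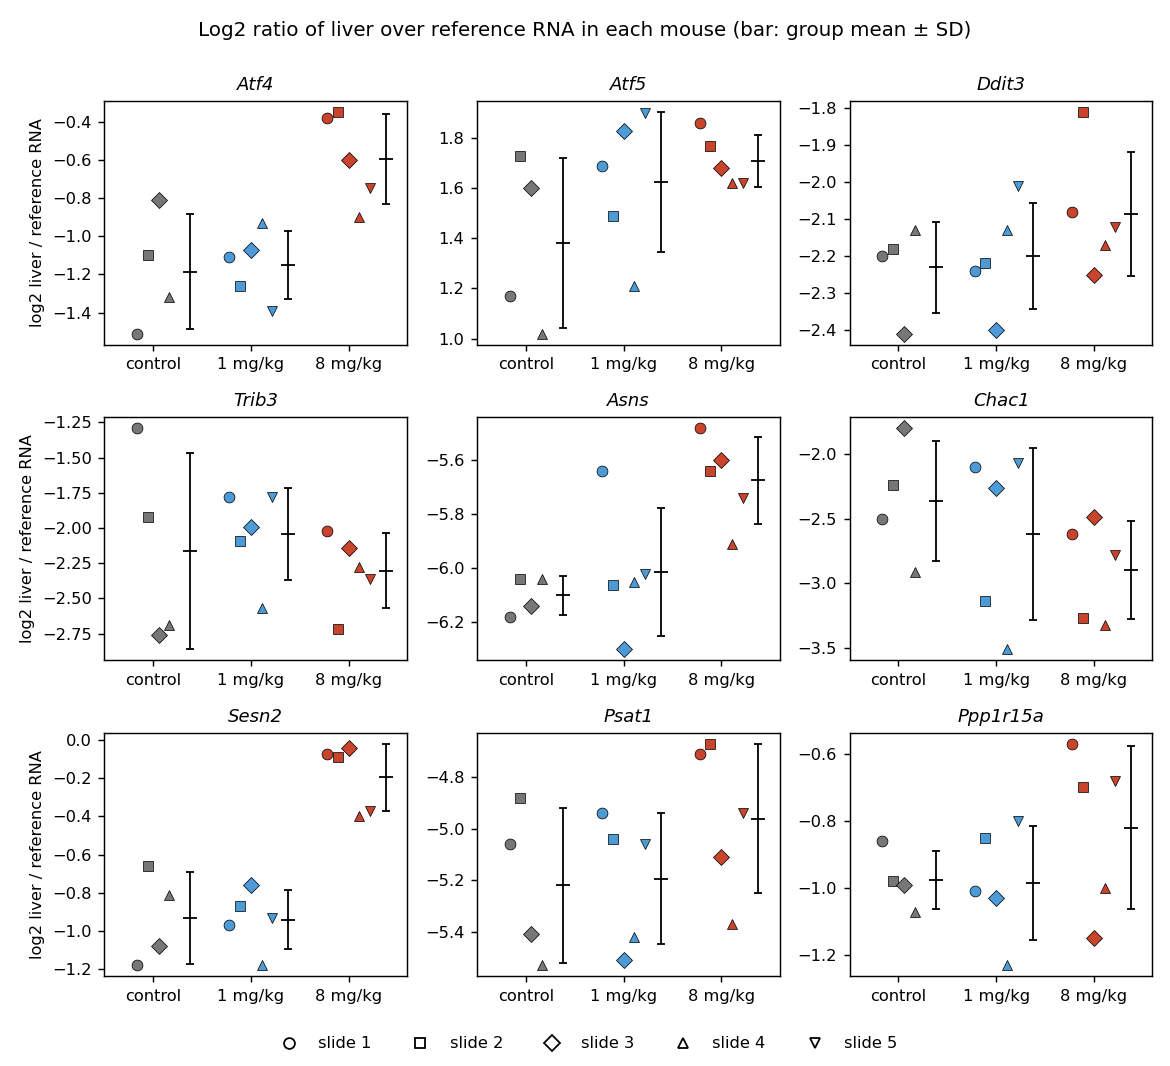
Log2 ratio of liver over reference RNA for the 9 genes in each of the 14 mice, by group, with a bar for each group's mean ± SD and a symbol for each slide. All 5 mice at 8 mg/kg lie above all 4 controls for Sesn2 and Asns, and these groups overlap for the other 7 genes.

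Sesn2 encodes sestrin 2, a stress-induced protein that restrains the growth kinase mTORC1 and takes part in antioxidant defence. Its log2 ratio was -1.18, -0.66, -1.08 and -0.81 in the 4 controls, -0.97, -0.93, -0.87, -0.76 and -1.18 in the 5 mice at 1 mg/kg, and -0.07, -0.04, -0.37, -0.40 and -0.09 in the 5 mice at 8 mg/kg. Every mouse at 8 mg/kg was higher than every other mouse, and the controls and the 1 mg/kg mice were intermixed. The rise at 8 mg/kg was 0.76 ± 0.12 (log2 difference ± SE, n = 5 against 4; 95% interval 0.51 to 1.01; limma, adjusted p = 0.00269). It was positive on all 4 slides, between 0.41 and 1.11, and Sesn2 had the smallest adjusted p of the 9.

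Atf4 itself, the transcription factor at the centre of the response, was measured by 2 probes. The brighter, which stands for the gene, read -1.51, -1.10, -0.81 and -1.32 in the controls, -1.11, -1.39, -1.26, -1.07 and -0.93 at 1 mg/kg, and -0.38, -0.60, -0.75, -0.90 and -0.35 at 8 mg/kg. All mice at 8 mg/kg were above all mice at 1 mg/kg, and 4 of them were above every control, whereas 8 mg/kg replicate 4 lay below control replicate 3. The rise at 8 mg/kg was 0.64 ± 0.14 (SE, n = 5 against 4; 95% interval 0.34 to 0.94; limma, adjusted p = 0.0233), positive on all 4 slides but uneven in size, from 0.21 on slide 3 to 1.13 on slide 1. The dimmer Atf4 probe read -0.89, -0.93, -0.78 and -0.61 in the controls and -0.22, -0.89, -0.67, -0.63 and -0.17 at 8 mg/kg. Only replicates 1 and 5 at 8 mg/kg stood clear of the controls by that probe. Its difference was 0.31 ± 0.13 (SE, n = 5 against 4; limma over all tested probes, adjusted p = 0.202). The rise of Atf4 therefore rests on the brighter probe. Without control replicate 1, 2 or 4, or without 8 mg/kg replicate 1 or 5, it did not pass (differences 0.50 to 0.66, limma adjusted p = 0.0542 to 0.0967).

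Asns encodes asparagine synthetase, which makes asparagine from aspartate and glutamine and is a standard readout of ATF4 activity in amino acid shortage. Its transcript was far scarcer in liver than in the reference RNA, with log2 ratios of -6.18, -6.04, -6.14 and -6.04 in the controls, -5.64, -6.02, -6.06, -6.30 and -6.05 at 1 mg/kg, and -5.48, -5.60, -5.74, -5.91 and -5.64 at 8 mg/kg. The raw liver-channel signal of its probe was low, 175 to 724 units, though well above background on all 14 arrays. In control replicate 1 that signal was 175 beside a local background of 72. The mice at 8 mg/kg were all above the controls, while replicate 1 at 1 mg/kg reached into the range of the 8 mg/kg group. The rise at 8 mg/kg was 0.44 ± 0.11 (SE, n = 5 against 4; 95% interval 0.19 to 0.68; limma, adjusted p = 0.0452), close to the threshold of 0.05. Leaving out any 1 of 11 mice moved it past that threshold (differences 0.32 to 0.50, limma adjusted p = 0.0515 to 0.171), and it passed without 1 mg/kg replicate 1 or 4 or without 8 mg/kg replicate 4. Nor did Asns pass without background correction or on the scanner's processed signals. Leaving out 1 mg/kg replicate 2 or 8 mg/kg replicate 3, the only mice of slide 5, gave the same fit. These mice are thus not separate among the 11. Groups did not overlap, with 8 mg/kg higher, for 2 of the 9 genes (Sesn2 and Asns), against 3.46% of all genes.

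Chac1 encodes a γ-glutamylcyclotransferase that degrades glutathione, and is induced through ATF4 in many cell types. Its log2 ratio was -2.50, -2.24, -1.80 and -2.91 in the controls, -2.10, -2.07, -3.14, -2.26 and -3.51 at 1 mg/kg, and -2.62, -2.49, -2.78, -3.32 and -3.27 at 8 mg/kg. Groups overlapped widely, with the mice of slide 4 low in all 3 groups, and on each slide that held both the mouse at 8 mg/kg was below the control. The difference at 8 mg/kg was -0.62 ± 0.17 (SE, n = 5 against 4; 95% interval -0.97 to -0.26; limma, adjusted p = 0.0511), so Chac1 lay just outside the threshold on the lower side while Asns lay just inside it on the higher. It passed without control replicate 1, without 1 mg/kg replicate 1 or without 8 mg/kg replicate 4 (limma adjusted p = 0.0147, 0.0384 and 0.0444). All 4 slides gave a negative sign, as they did for 11.4% of all genes.

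Atf5, a bZIP factor related to ATF4 whose mRNA is likewise held back by upstream reading frames and which is abundant in liver, was the one gene of the 9 brighter in liver than in reference RNA. It read 1.17, 1.73, 1.60 and 1.02 in the controls and 1.86, 1.68, 1.62, 1.62 and 1.77 at 8 mg/kg. The 8 mg/kg mice were close together and the controls spread, with control replicates 1 and 4 low and replicates 2 and 3 within or near the treated range. The difference was 0.30 ± 0.13 (SE, n = 5 against 4; limma, adjusted p = 0.202). Psat1, which encodes phosphoserine aminotransferase of serine synthesis, read -5.06, -4.88, -5.41 and -5.53 in the controls and -4.71, -5.11, -4.94, -5.37 and -4.67 at 8 mg/kg. The probe that stands for Psat1 was dim as well, at 150 to 430 units in the liver channel. The Psat1 groups overlapped, yet the mouse at 8 mg/kg was above the control by 0.16 to 0.36 on each of the 4 slides, a sign pattern that 14.4% of all genes showed. The difference of 0.24 ± 0.08 did not pass (SE, n = 5 against 4; limma, adjusted p = 0.129). The second Psat1 probe was well above background on 7 of 14 arrays and gave -0.10 ± 0.12 (SE; limma over all tested probes, adjusted p = 0.705), so the probes differed in sign.

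The death-related and feedback genes had small differences or ones that varied from slide to slide. Ddit3 encodes CHOP, a bZIP factor linked to cell death under prolonged endoplasmic reticulum stress, and its log2 ratio ran from -2.41 to -2.13 in controls and from -2.25 to -1.81 at 8 mg/kg. Only replicate 5 at 8 mg/kg stood clearly above the rest, and the difference was 0.12 ± 0.09 (SE, n = 5 against 4; 95% interval -0.07 to 0.32; limma, adjusted p = 0.474). Ppp1r15a encodes GADD34, which directs a phosphatase to eIF2α and so ends the response; it ran from -1.07 to -0.86 in controls and from -1.15 to -0.57 at 8 mg/kg. The treated mice lay on both sides of the controls, and the difference was 0.11 ± 0.09 (95% interval -0.09 to 0.32; limma, adjusted p = 0.536).

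Trib3 encodes a pseudokinase that binds ATF4 and AKT and damps both. It varied more among controls than any other of the 9, reading -1.29, -1.92, -2.76 and -2.69, against -2.02, -2.14, -2.36, -2.28 and -2.72 at 8 mg/kg. The treated mice lay inside the range of the controls. Differences within slides were of opposite sign, -0.73 and -0.80 on slides 1 and 2 and 0.62 and 0.41 on slides 3 and 4, and the fitted difference was -0.17 ± 0.20 (SE, n = 5 against 4; 95% interval -0.59 to 0.26; limma, adjusted p = 0.696).

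**Figure D2:**
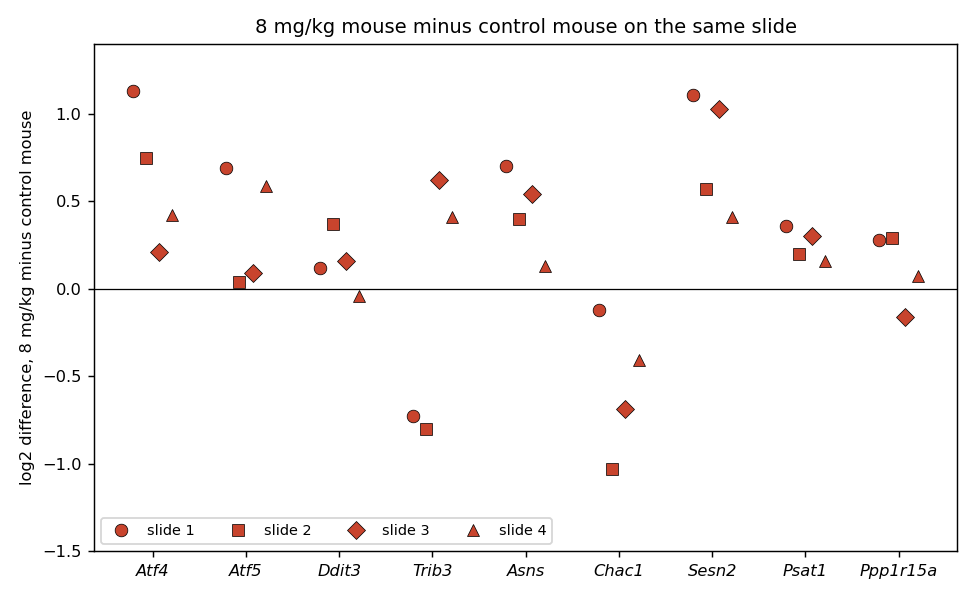
Difference in log2 ratio between the mouse at 8 mg/kg and the control on each of the 4 slides that held both, for the 9 genes. Sesn2, Atf4, Asns, Atf5 and Psat1 are above 0 on all 4 slides, Chac1 is below 0 on all 4, and Trib3 is split between them.

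The genes also differed in how much of their variance lay between slides. Slide accounted for 5.5% of the variance of Sesn2, 7.2% of Atf4 and 14.3% of Asns, and dose within slides for 82.7%, 66.9% and 58.2%. For Psat1, Chac1 and Ppp1r15a the slide accounted for 77.4%, 59.7% and 59% and dose for 16.4%, 22.1% and 15.1%. The 3 genes that rose had the smallest slide shares, but the shares of a gene are parts of 1 total. A large dose share leaves little for the slide, so this is not a separate property of these genes. Counted mouse by mouse against the mean of its slide, 5 to 7 of the 9 genes were above that mean in each mouse at 8 mg/kg. The count was 1 to 3 in each control and 1 to 4 in each mouse at 1 mg/kg. Mice of the same slide are not independent in this count. Each slide mean includes the mouse at 8 mg/kg, so a high value there places the others lower. The same count was not made over all genes.

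The next comparison asked whether the lower dose reached these genes. At 1 mg/kg none of the 9 passed against control, and 0% of all 21975 genes passed by limma. None of the 9 had an unadjusted p under 0.05, which 6.9% of all genes had. The median difference of the 9 was 0.01 (range -0.34 to 0.22) beside 0.03 over all genes. Sesn2 differed by 0.01 ± 0.12 (SE, n = 5 against 4; 95% interval -0.24 to 0.26; limma, adjusted p = 0.992), an interval that lies wholly below its difference of 0.76 at the higher dose. For Atf4 the difference was 0.08 ± 0.14 (95% interval -0.22 to 0.38; limma, adjusted p = 0.922) and for Asns 0.10 ± 0.11 (95% interval -0.15 to 0.34; limma, adjusted p = 0.885). The largest difference in size was that of Chac1, -0.34 ± 0.17 (95% interval -0.69 to 0.02; limma, adjusted p = 0.727), with slides of both signs.

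Between the doses, 8 mg/kg against 1 mg/kg, 2 of the 9 genes rose (Sesn2 and Atf4) and none fell, where 5.28% of all genes passed in either direction, 2.41% as higher and 2.88% as lower. Sesn2 was higher by 0.75 ± 0.11 (SE, n = 5 against 5; 1.68-fold; limma, adjusted p = 0.00164), and by 0.55 to 0.90 on each of the 5 slides. Atf4 was higher by 0.56 ± 0.13 (SE, n = 5 against 5; 1.47-fold; limma, adjusted p = 0.0243), positive on all 5 slides with only 0.03 on slide 4. For these genes the groups did not overlap, which held for 2.01% of all genes as higher. Asns was 0.34 ± 0.10 higher in sign on all 5 slides and missed the threshold (limma, adjusted p = 0.0718), as did Psat1 at 0.23 ± 0.08 (limma, adjusted p = 0.1). This comparison shares its 8 mg/kg mice with the first, so their like values are not separate evidence. Without 1 mg/kg replicate 1, 2, 3 or 4, or without 8 mg/kg replicate 1, 3 or 5, Atf4 did not pass (differences 0.47 to 0.57, limma adjusted p = 0.062 to 0.0889). Here too, leaving out 1 mg/kg replicate 2 or 8 mg/kg replicate 3 was the same fit.

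Group by group, the mean log2 ratio of Sesn2 was -0.93 ± 0.24 in controls (SD, n = 4), -0.94 ± 0.15 at 1 mg/kg (SD, n = 5) and -0.20 ± 0.18 at 8 mg/kg (SD, n = 5). Atf4 stood at -1.19 ± 0.30, -1.15 ± 0.18 and -0.60 ± 0.24, and Asns at -6.10 ± 0.07, -6.01 ± 0.24 and -5.67 ± 0.16 in the same order. In each of the 3 genes, control and 1 mg/kg were neighbours that did not differ beyond their spread. Chac1 went the other way in sign, from -2.36 ± 0.47 through -2.62 ± 0.66 to -2.90 ± 0.38, with no neighbouring pair apart beyond its spread.

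**Figure D3:**
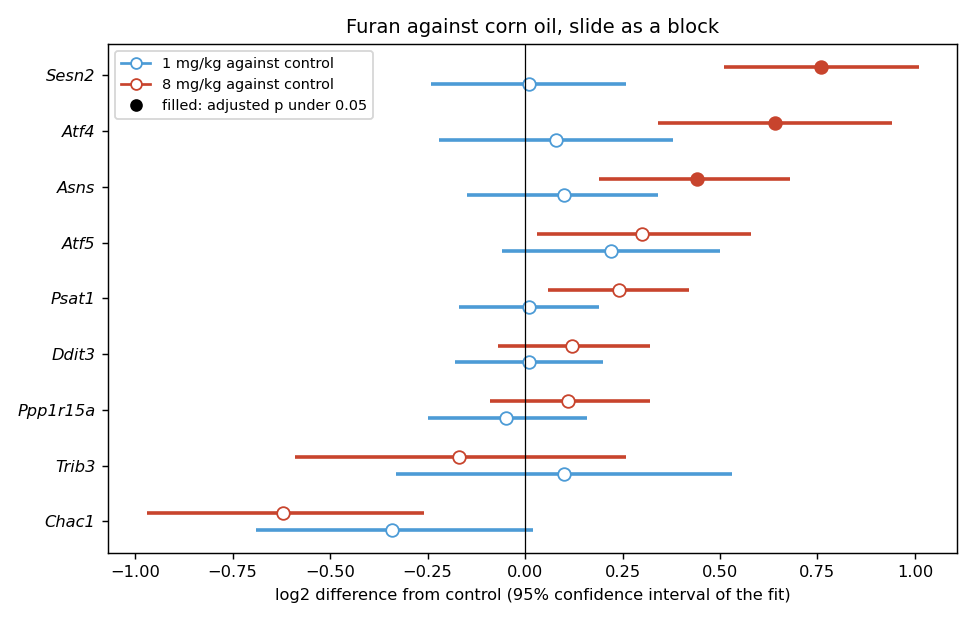
Log2 difference with its 95% interval from the limma fit for the 9 genes at 1 and at 8 mg/kg against control, with filled points where the adjusted p is under 0.05. At 8 mg/kg against control the intervals of Sesn2, Atf4, Asns, Atf5 and Psat1 lie above 0 and that of Chac1 below it, while at 1 mg/kg all 9 intervals include 0.

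The genes whose pattern over the 14 arrays was most like that of Atf4 were found by the root mean square difference between slide-centred log2 ratios, among 13754 genes with a symbol (median over all genes 0.352). The 5 closest were Trp53inp1, a p53-induced regulator of autophagy and cell death (0.095), Atpif1, the inhibitor of the mitochondrial ATP synthase (0.106), Gstp2, a pi-class glutathione S-transferase (0.113), Rnd3 (0.116), and Dnaja1, an HSP40 cochaperone (0.12). Their log2 differences at 8 mg/kg against control were 0.81 ± 0.14 for Trp53inp1, 0.69 ± 0.10 for Atpif1, 0.70 ± 0.14 for Gstp2, 0.43 ± 0.13 for Rnd3 and 0.53 ± 0.12 for Dnaja1 (SE, n = 5 against 4). These values are a description with no test, because the genes were picked for their likeness to Atf4 on the same arrays. With the dimmest probe of the gene the difference of Trp53inp1 was 0.33 and that of Dnaja1 -0.24. Gstp2 has a close paralog whose transcripts can hybridise to the same probe. Of the 9 genes themselves, Asns was the closest to Atf4 (0.19, rank 139), ahead of Psat1 (0.225, rank 462) and Sesn2 (0.236, rank 653), and Chac1 and Trib3 were near the far end (0.572 and 0.576, ranks 13555 and 13564).

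Other genes of the pathway were taken from lists, read here at 8 mg/kg against control. The lists were written with earlier results of these data known, so their counts are a description and not a test. Over all genes, 2.73% passed as higher and 1.36% as lower in this comparison. Upstream of ATF4, none of 21 genes for eIF2α kinases, phosphatase subunits and initiation factors passed by limma, although 7 had an unadjusted p under 0.05, against 20.3% of all genes, and the median was 0.06. The nearest to passing were Eif2s2, the β subunit of eIF2 (0.29 ± 0.09, limma adjusted p = 0.0973), and Eif2b2, a subunit of its exchange factor (0.27 ± 0.08, limma adjusted p = 0.0662). Transcripts of the kinases and factors thus gave no call, and their activity was not measured.

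Among 25 other genes known as ATF4 targets, 6 rose and none fell, with a median of 0.10, where 2.73% of all genes passed as higher. This list too was chosen with earlier results known, so the count is not separate evidence of ATF4 activity. Gdf15, a stress hormone that lowers food intake, rose by 1.56 ± 0.17 (SE; limma, adjusted p = 0.000339), more than any of the 9. Tnfrsf10b, a death receptor, rose by 0.77 ± 0.10 (limma, adjusted p = 0.000769) and was well above background in 3 of 4 controls, with a difference of 1.77 on the scanner's processed signals. Rassf1, a tumour suppressor scaffold, rose by 0.81 ± 0.11 (limma, adjusted p = 0.00141), and Ndrg1 by 0.73 ± 0.16 (limma, adjusted p = 0.0258). Gdf15 and Tnfrsf10b are also known targets of p53. Whether ATF4, p53 or another factor raised these genes, or Sesn2, was not tested. The other 19 genes did not pass.

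Among 24 bZIP partners and repressors of ATF4, 4 rose and none fell, with a median of 0.05. Jun, an AP-1 subunit induced early after many stimuli, rose by 1.79 ± 0.27 (SE; limma, adjusted p = 0.00238). Nfe2l2, which encodes NRF2 of the antioxidant response, rose by 0.76 ± 0.11 (limma, adjusted p = 0.00183), and the AP-1 subunit Fosl2 by 0.53 ± 0.13 (limma, adjusted p = 0.0345). Atf3, a stress-induced bZIP repressor that is also in the list of ATF4 targets, rose by 1.11 ± 0.27 (limma, adjusted p = 0.0381).

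Few genes of the amino acid branch passed, and those that did went in both directions. Of 22 aminoacyl-tRNA synthetases and associated factors, 2 rose, Cars for cysteine (0.56 ± 0.08, limma adjusted p = 0.00224) and Gars for glycine (0.47 ± 0.09, limma adjusted p = 0.00981), and the median was -0.01. Of 17 genes for serine, glycine, proline and one-carbon synthesis none rose, and Glul, the glutamine synthetase of pericentral hepatocytes, fell by 0.35 ± 0.09 on the log2 scale (limma, adjusted p = 0.0426; list median -0.03). Of 18 amino acid transporters none rose and 2 fell, the glutamate carrier Slc1a2 by 0.38 ± 0.09 (limma, adjusted p = 0.03) and the neutral amino acid carrier Slc43a1 by 0.48 ± 0.13 (limma, adjusted p = 0.0493), with a list median of -0.06. Across these 3 lists, 2 genes rose as Asns did and 3 fell, where 2.73% of all genes passed as higher and 1.36% as lower.

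Around mTORC1 and autophagy, where sestrin 2 acts, 2 of 21 genes rose and none fell (median -0.06). Ddit4l, a relative of the mTORC1 inhibitor REDD1, rose by 0.95 ± 0.10 (SE; limma, adjusted p = 0.000338), but was well above background in 1 of 4 controls, and its difference was 2.34 on the scanner's processed signals. Atg12, which is conjugated to ATG5 as autophagosomes form, rose by 0.41 ± 0.09 (limma, adjusted p = 0.0202). Of 17 mitochondrial stress genes 2 rose and none fell (median 0.15), the chaperonin gene Hspd1 by 0.42 ± 0.09 (limma, adjusted p = 0.0168) and the protease subunit gene Clpx by 0.90 ± 0.20 (limma, adjusted p = 0.0276).

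The IRE1 and ATF6 arms, the other branches of the endoplasmic reticulum stress response, had a negative list median at 8 mg/kg, -0.30 beside 0.00 over all genes. Of 27 genes none rose and 3 fell, and the other 24 did not pass. Ero1b, an oxidase of protein folding, fell by 0.86 ± 0.15 on the log2 scale (limma, adjusted p = 0.00694). Sdf2l1, a chaperone cofactor, fell by 1.07 ± 0.24 (limma, adjusted p = 0.0243), and Derl3, of endoplasmic reticulum associated degradation, by 1.35 ± 0.33 (limma, adjusted p = 0.036). Pancreatic acinar cells are rich in such transcripts, and the summed signal of 12 acinar markers was 3434 to 4198 units in controls, 3043 to 4369 at 1 mg/kg and 2394 to 2917 at 8 mg/kg. Of these markers 5 were above background on all arrays, and Cpa1, Cpb1 and Prss2 were among those above it on none. Amy2a5, an amylase, fell by 0.73 ± 0.11 (limma, adjusted p = 0.00238), and the other 5 acinar markers tested did not pass, with differences of -0.14 to -0.02. The part of acinar transcripts in the list's values was not tested.

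**Figure D4:**
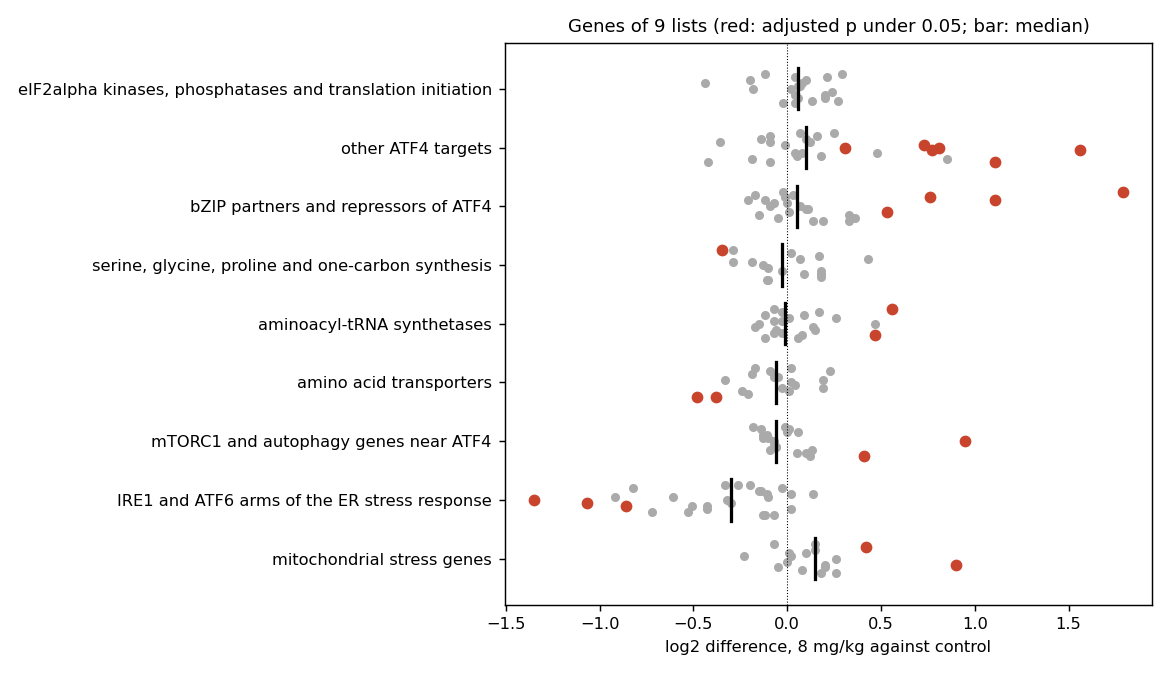
Log2 difference at 8 mg/kg against control for every tested gene of the 9 lists, 1 point a gene, red where the adjusted p is under 0.05, with the list median as a bar. The medians lie between -0.30 for the IRE1 and ATF6 arms and 0.15 for mitochondrial stress genes.

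The calls of Gdf15, Tnfrsf10b, Rassf1, Jun, Nfe2l2, Cars, Gars, Ddit4l and Ero1b held when any 1 of the 14 mice was left out, as did that of Sesn2. Gars did not pass without the slide block, with the replicate block or with only the arrays of the groups compared (limma adjusted p up to 0.455). Hspd1 was lost without control replicate 1, 2 or 4 or 8 mg/kg replicate 1 or 5, the same mice as for Atf4 (limma adjusted p up to 0.0631). Ndrg1 and Clpx did not pass without control replicate 1, 3 or 4 or 8 mg/kg replicate 1, 2 or 4 (up to 0.0982 and 0.101), and Atg12 without control replicate 1 or 3 or 8 mg/kg replicate 1 (up to 0.0866). Sdf2l1 was lost without control replicate 2 or 3 or 8 mg/kg replicate 1, 2 or 5 (up to 0.0888), and Derl3 without these mice, 1 mg/kg replicate 2 or 8 mg/kg replicate 3 (up to 0.106). Atf3 was lost without control replicate 1, 2 or 4, 1 mg/kg replicate 2 or 8 mg/kg replicate 1, 3 or 5 (up to 0.147), and Fosl2 without these or control replicate 3 (up to 0.121). For every gene, leaving out 1 mg/kg replicate 2 or 8 mg/kg replicate 3, the only mice of slide 5, was the same fit. Slc1a2 passed only without 1 mg/kg replicate 1, 3, 4 or 5 or 8 mg/kg replicate 2, Slc43a1 only without control replicate 2, 1 mg/kg replicate 3 or 8 mg/kg replicate 4, and Glul only without 1 mg/kg replicate 3 or 8 mg/kg replicate 2 (limma adjusted p otherwise up to 0.115, 0.144 and 0.146).

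At 1 mg/kg against control none of the genes in these 9 lists passed, with list medians of -0.05 to 0.10 beside 0.03 over all genes. At 8 mg/kg against 1 mg/kg, 5 of the 25 other ATF4 targets and 4 of the 24 bZIP genes rose, no tRNA synthetase passed by limma (3 of 22 had an unadjusted p under 0.05, against 21.4% of all genes), and 4 of the 18 transporters fell. The IRE1 and ATF6 list again had the lowest median of the 9, -0.28, with 2 of 27 lower. Over all genes, 2.41% passed as higher and 2.88% as lower at 8 mg/kg against 1 mg/kg.

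Markers of other cells in liver were read beside these results. At 8 mg/kg against control none of 11 Kupffer cell, 10 lymphocyte, 10 stellate, 9 sinusoidal endothelial or 7 cholangiocyte markers passed by limma, with list medians of -0.10 to 0.03. In the same order, 2, 0, 0, 1 and 2 of them had an unadjusted p under 0.05, against 20.3% of all genes. The summed signal of the Kupffer cell markers was 25223 to 30474 units in controls and 26057 to 35615 at 8 mg/kg, and that of the lymphocyte markers 7978 to 9829 and 5865 to 11525. Among 13 hepatocyte markers Cps1, of the urea cycle, fell by 0.34 ± 0.08 (limma, adjusted p = 0.0335) and the other 12 did not pass. At 8 mg/kg against 1 mg/kg, where Sesn2 and Atf4 also passed, Lrat, a stellate marker of retinoid storage, fell by 0.64 ± 0.15 (limma, adjusted p = 0.0291). All 9 sinusoidal markers were lower in sign there, at -0.27 to -0.08 beside a median of -0.02 over all genes. None of them passed by limma, and 4 had an unadjusted p under 0.05, against 21.4% of all genes. At 1 mg/kg against control no marker passed, and the medians were 0.24 for Kupffer cell, 0.20 for stellate and 0.17 for sinusoidal markers beside 0.03 over all genes. The part of these cells in the values of the 9 genes was not tested.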

How the data were processed

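Each array paired the liver RNA of 1 mouse (Cy5) with reference RNA (Cy3), per the labels. The deposited scanner files hold spot and local background intensity values read with Feature Extraction 10.7.3.1, per the file headers. A second deposited file, the authors' normalized values, behaved as a linear ratio of Cy5 over Cy3: its log2 values correlated at 0.9921 to 0.9951 with those computed here, and its column medians were 0.9765 to 0.9897. Its normalization is not stated in the sources used here, so it served as an alternative.

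Spot medians were background-corrected by normexp in limma (offset 50) and log2 ratios normalized by loess within arrays. Control spots (3671) had no weight, and spots with outlier flags, 178 to 336 per array, were left out. RefSeq accessions (GRCm38.p6) named 26413 probes and left 29268 unnamed. A probe was tested if well above background in the liver channel on at least 4 of 14 arrays, and the brightest tested probe stood for a gene. Differences were fitted with limma 3.58.1 (R 4.3.3; data.table version 1.17.8) over all 14 arrays and 21975 genes with slide as a block, with Benjamini-Hochberg adjustment over all genes and a threshold of 0.05. Second probes of Atf4 and Psat1 were read from a like fit, adjusted over the 28866 probes that passed the filter. The gene fit was tested on simulated data. The number of arrays limits the precision. Marker signals are sums of quantile-normalized liver-channel intensities.

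The genes, lists and markers were chosen with earlier results of these data known. From each list the genes named are those that passed at 8 mg/kg against control, at most 4 with the smallest adjusted p, or the 2 with the smallest p where none passed; to these come the 5 genes most like Atf4. Hepatocyte, Kupffer cell, lymphocyte, stellate, sinusoidal, cholangiocyte, pancreatic and erythroid markers were listed. The alternatives varied the block, background correction, normalization, probe filter, choice of probe, arrays and each mouse left out. Figures were drawn with matplotlib 3.10.9 (Python 3.11.15).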

Additional observations from a re-analysis of the deposited data

How the results depend on the processing

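Over the 29 alternatives run, Sesn2 passed at 8 mg/kg against control in 29 (log2 difference 0.66 to 0.98), Atf4 in 18 (0.31 to 0.78), Asns in 9 (0.32 to 0.64), Chac1 in 4 (-0.82 to -0.38) and Psat1 in 1. Of the 9 genes, 1 passed at 8 mg/kg against control, in place of 3, without the slide block, with the replicate block in place of the slide block, with only the arrays of the groups compared, on processed signals from the scanner and with the dimmest probe of each gene. Against 1 mg/kg, 1 passed in place of 2 without the slide block, with the replicate block, on processed signals and with the dimmest probe. Leaving out 1 mouse gave 1 to 4 genes at 8 mg/kg against control, 1 to 3 against 1 mg/kg, and 0 at 1 mg/kg against control. Among these settings, leaving out 1 mg/kg replicate 2 or 8 mg/kg replicate 3, the only mice of slide 5, gave the same fit. The 29 alternatives count this fit more than once. The dimmest probe reversed Psat1 (-0.10), Eif2s2 (-0.21) and Dnaja1 (-0.24). Without slide 3, a setting chosen after seeing the data, Atf4 and Sesn2 passed in both comparisons at 8 mg/kg. Over all genes, calls at 8 mg/kg against control ran from 122 (replicate block) to 1351 (median centring), beside 898. With only probes well above background on all arrays, 1004 of 16922 genes passed, among them Asns, Atf4, Chac1 and Sesn2. Median centring in place of loess moved the median of all genes to 0.137 and the share of calls that were higher from 66.8% to 96.4%; with the liver channel alone the share was 53.8%. Replicate numbers gave no clear sign of pairing: deviations of same-numbered mice correlated at -0.42 to 0.25, above 0.1 in 5 of 13 pairs. Of the 4 such pairs that shared a slide, 3 were above 0.1 (median 0.17), beside all 9 other-numbered pairs that shared a slide (median 0.34). On different slides the median was -0.14 over 9 same-numbered pairs and -0.08 over 43 other pairs. A pairing is not excluded by these values. The replicate block together with the slide block could not be fitted and was not run. The causes of these changes were not tested.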

Other observations

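Of 7 erythroid markers tested, Car2, a carbonic anhydrase that liver also expresses, rose by 1.13 ± 0.13 at 8 mg/kg against control (SE, n = 5 against 4; limma, adjusted p = 0.000372) and the other 6 did not pass. Fgf21, a liver hormone of the stress response that falls outside the naming rule and was chosen after its values were seen, had a difference of 0.85 ± 0.23 (limma, adjusted p = 0.0569), higher in sign on 4 of 4 slides.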
